A study of Homo sapiens with 6 samples.

Results

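Interferon-stimulated genes are the genes that a cell turns on when it senses interferon or viral RNA. This account follows 50 classical ones, taken by symbol from the 63677 genes of the deposited count table through their Ensembl identifiers. All 50 are among the 57773 genes on the primary chromosomes, and all 50 passed the expression filter that left 16926 genes for testing. The cells were RPMI8226, an established human multiple myeloma line. They were kept for 6 hr with 100 nM of GST-PTR1, a fusion of glutathione-S-transferase (GST) to PTR1, a domain of the extracellular matrix protein HAPLN1, or with 100 nM of GST alone as the control. Each treatment had 3 RNA-Seq libraries, which the study describes as biological replicates, and a single cell line and a single time were sampled.

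Type I and type III interferons bind cell-surface receptors whose kinases switch on transcription factors. Their complex, ISGF3, binds a DNA element called the interferon-stimulated response element (ISRE). The genes it turns on detect foreign RNA, block viral entry, copying, translation and release, and tag proteins with the ubiquitin-like protein ISG15.

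Total counts were 15202503, 20077280 and 23453473 for GST and 22874133, 28837431 and 44688737 for GST-PTR1. Columns of the table could not be matched to replicate numbers in the labels. Libraries are therefore numbered 1 to 3 within a treatment by rising total, and values are always listed in that order. Levels are given as CPM, a gene's counts relative to the library total, with totals scaled by edgeR's TMM factors. Changes are log2 fold changes of GST-PTR1 over GST with their standard error (SE), and a gene was called when its p from edgeR's quasi-likelihood test was under 0.05 after Benjamini-Hochberg adjustment for all genes tested. Scaling by library totals instead moved the median change over the whole set of tested genes from 0.01 to -0.19 on the log2 scale. The plasma cell genes SDC1, TNFRSF17, XBP1, IRF4, PRDM1 and CD38 were all expressed. SDC1, TNFRSF17 and XBP1 were called lower, with log2 fold changes of -1.03, -1.41 and -0.47, IRF4 and PRDM1 were called higher, with 0.65 and 1.35, and their part in the results was not tested. Of other cells, 9 markers of T, myeloid, natural killer, stromal and red cells were at or near 0 CPM, the highest single value being 0.841 CPM for CSF1R. In bulk RNA, more responding cells and more RNA in each cell cannot be told apart.

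More of the classical interferon-stimulated genes were higher with GST-PTR1 than lower, and their changes were modest in size. Of the 50, 33 (66%) were called higher, against 9.15% of all genes tested. None was called lower, against 11.4% of all genes tested. At an unadjusted p under 0.05 edgeR gave 0 lower, against 18.8% of all genes tested. This adds nothing further, because all 50 changes were positive in this fit. DESeq2 and limma's voom called 0 lower too. A fall of at least 2-fold, found for 3.85% of all genes tested, was likewise not seen among the 50. The median log2 fold change was 0.57, with quartiles of 0.41 and 0.81, and all 50 values were positive (50.7% of all genes tested), from 0.01 for RTP4 to 1.30 for OAS3, although 4 of them (EIF2AK2, IFITM3, LY6E and RTP4) were negative with library totals. Only 9 of the 33 rose at least 2-fold (18% of the 50, against 3.68% of all genes tested). These were OAS3, IFIH1, HERC5, OASL, DHX58, SAMD9L, DDX58, TRIM22 and PLSCR1.

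For 38 of the 50 genes (76%), every GST-PTR1 library lay above every GST library, which was so for 19.2% of all genes tested. The call and the separation of the libraries did not always go together. UBE2L6, CMPK2, IFITM2, BST2, PML and EIF2AK2 were separate but not called, and USP18 was called although its treatments overlapped. The 17 genes that were not called had adjusted p-values from 0.0685 to 0.988. With library totals, 22 genes were called higher and 5 of them rose at least 2-fold, and 49 of the 50 lay above the median of all genes tested. The share of all genes called was not computed for library totals.

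**Figure D1:**
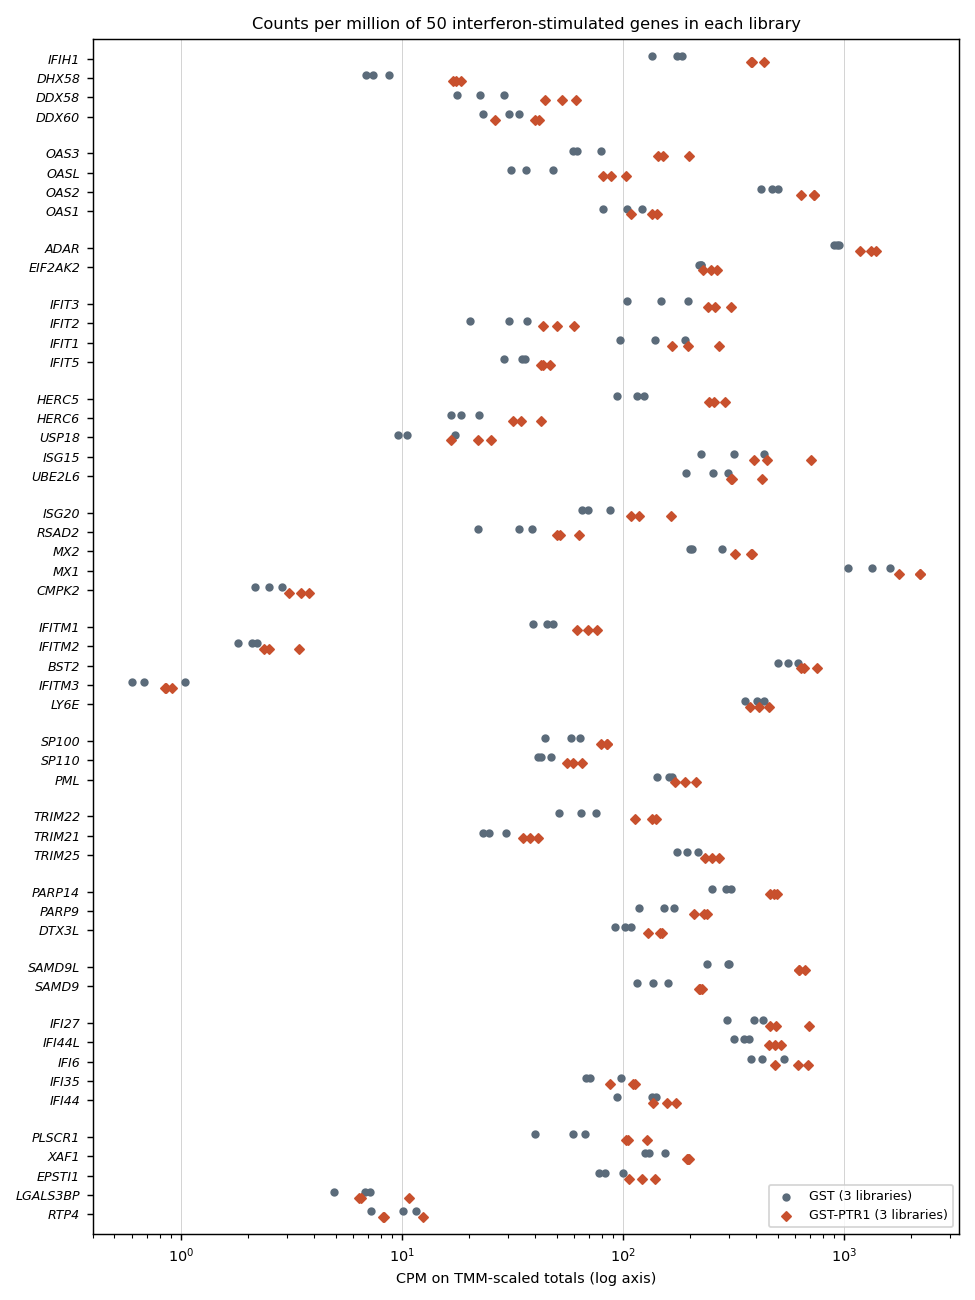
CPM of each of the 50 genes in each of the 6 libraries, on a log axis, grouped by the role of the product, with circles for GST and diamonds for GST-PTR1. The diamonds lie wholly to the right of the circles for 38 genes.

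Promoters of the 50 genes were read for the ISRE, to set the sequence beside the size of the change. RefSeq promoter windows on GRCh38.p14, running from 250 bases before to 50 after the start of transcription, were at hand for 40 of the 50 genes. The motif letters were GAAA and GAAA with any 2 bases between them, on either strand, and matches may overlap. It was found in 28 of the 40 genes (70%), against 4.13% of the 10285 tested genes with a window and 3.57% of all 35116 windows. The genes were listed as classical interferon targets, so this share describes the list and says nothing of GST-PTR1. Within the 40, 18 of the 28 genes with a match and 8 of the 12 without one were called higher, and the median log2 fold changes were 0.57 and 0.49. Whether the genes with and without a match differ in response was not tested. Shown first are the windows of OAS3, IFIH1 and HERC5, the genes of the largest change that hold a match, in 5′ to 3′ direction of the gene with the ISRE matches in capitals.

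OAS3, chr12:112938224-112938523, plus strand: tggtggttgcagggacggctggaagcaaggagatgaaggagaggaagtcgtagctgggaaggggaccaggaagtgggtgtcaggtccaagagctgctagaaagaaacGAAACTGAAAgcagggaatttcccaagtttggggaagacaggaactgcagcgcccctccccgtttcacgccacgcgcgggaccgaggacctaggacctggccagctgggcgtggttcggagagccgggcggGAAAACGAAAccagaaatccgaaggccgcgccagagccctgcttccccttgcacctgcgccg
IFIH1, chr2:162318635-162318934, minus strand: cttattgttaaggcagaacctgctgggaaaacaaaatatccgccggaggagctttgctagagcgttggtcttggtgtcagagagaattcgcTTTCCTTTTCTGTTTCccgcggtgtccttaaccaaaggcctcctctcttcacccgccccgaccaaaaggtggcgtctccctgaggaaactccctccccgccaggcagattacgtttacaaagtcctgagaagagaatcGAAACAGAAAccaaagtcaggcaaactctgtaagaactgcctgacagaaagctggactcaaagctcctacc
HERC5, chr4:88456869-88457168, plus strand: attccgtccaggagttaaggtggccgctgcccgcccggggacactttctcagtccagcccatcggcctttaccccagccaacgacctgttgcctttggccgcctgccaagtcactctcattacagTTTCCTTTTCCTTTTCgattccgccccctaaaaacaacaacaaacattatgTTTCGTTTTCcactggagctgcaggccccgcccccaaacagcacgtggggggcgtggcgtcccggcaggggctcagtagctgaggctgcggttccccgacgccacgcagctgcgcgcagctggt

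In OAS3 the matches began 143 and 12 bases before the start. In IFIH1 they began 159, 153 and 21 bases before it, where the 2 farthest share bases and lie on the opposite strand. HERC5 had them at 125, 119 and 74 bases before the start, all on the opposite strand. SAMD9L and DDX58 are shown next because their changes were the largest among the genes with no match, with log2 fold changes of 1.19 each. RTP4 is shown last because it carries a pair of matches, 42 and 18 bases before the start, and had the smallest change of the 50. It was chosen after its values were seen.

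SAMD9L, chr7:93148336-93148635, minus strand: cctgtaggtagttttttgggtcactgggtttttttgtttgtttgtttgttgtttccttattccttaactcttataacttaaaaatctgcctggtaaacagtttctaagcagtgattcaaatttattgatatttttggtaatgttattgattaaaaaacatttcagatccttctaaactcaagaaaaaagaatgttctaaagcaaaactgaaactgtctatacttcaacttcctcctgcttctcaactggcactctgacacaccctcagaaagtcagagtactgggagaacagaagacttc
DDX58, chr9:32526147-32526446, minus strand: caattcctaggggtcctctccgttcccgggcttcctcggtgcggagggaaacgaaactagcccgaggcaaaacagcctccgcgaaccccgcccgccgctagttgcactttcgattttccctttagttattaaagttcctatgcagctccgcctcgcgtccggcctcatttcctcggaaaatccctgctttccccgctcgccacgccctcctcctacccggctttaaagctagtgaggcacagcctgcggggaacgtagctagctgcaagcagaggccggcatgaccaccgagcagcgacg
RTP4, chr3:187368135-187368434, plus strand: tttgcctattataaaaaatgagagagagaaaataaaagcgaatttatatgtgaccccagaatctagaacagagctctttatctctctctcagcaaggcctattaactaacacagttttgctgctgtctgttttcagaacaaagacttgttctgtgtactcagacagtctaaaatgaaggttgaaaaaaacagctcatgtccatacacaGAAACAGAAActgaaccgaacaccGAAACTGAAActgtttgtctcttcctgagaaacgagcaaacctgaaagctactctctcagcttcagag

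The lack of capitals in SAMD9L and DDX58 says only that these letters are not in this window. The gamma-activated site with the letters TTCNNNGAA was found in 11 of the 40 genes (27.5%), against 8.45% of the tested genes. The κB consensus, the NF-κB site, was read with the letters GGGRNNYYCC, where R is A or G and Y is C or T. It was found in 7 of the 40 (17.5%), against 17.2% of the tested genes, which is close to the background. This too covers only these letters in this window, and sites elsewhere were not read. Of the 7, OAS3, IFIH1 and DDX58 rose at least 2-fold, and MX1 and XAF1 were called higher by less. BST2 and IFITM3 were not called.

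Counts by subgroup follow. Over all genes tested, 9.15% were called higher and 3.68% were called at least 2-fold higher. Every GST-PTR1 library lay above every GST library for 19.2%. Of the 4 RNA helicase genes, 3 rose at least 2-fold, and these encode the cell's sensors of viral RNA. IFIH1 encodes MDA5, the sensor of long double-stranded RNA, and is the gene ENSG00000115267 on chromosome 2 from 163123589 to 163175213 of GRCh37 on the minus strand. It was at 134, 185 and 176 CPM with GST and 381, 377 and 433 CPM with GST-PTR1, and its log2 fold change was 1.27 ± 0.14 (SE, edgeR adjusted p = 7.33e-05). DDX58 encodes RIG-I, which reads the triphosphate end of viral RNA, and is the gene ENSG00000107201 on chromosome 9 from 32455300 to 32526322 of GRCh37 on the minus strand. Its level was 17.8, 22.5 and 28.9 CPM with GST and 52.8, 44.3 and 60.96 CPM with GST-PTR1, and its log2 fold change was 1.19 ± 0.18 (SE, edgeR adjusted p = 0.000869). DHX58 encodes LGP2, a related helicase without signalling domains, and is the gene ENSG00000108771 on chromosome 17 from 40253422 to 40264751 of GRCh37 on the minus strand. Its libraries were at 7.39, 6.87 and 8.71 CPM with GST and 17.6, 16.97 and 18.4 CPM with GST-PTR1, and its log2 fold change was 1.20 ± 0.13 (SE, edgeR adjusted p = 0.000101). The lowest GST-PTR1 library of each of these 3 genes lay well above the highest GST library. DDX60, a more distant helicase of the same superfamily, was not called. It was at 23.1, 30.6 and 33.7 CPM with GST and 41.6, 26.3 and 39.7 CPM with GST-PTR1, and its log2 fold change was 0.30 ± 0.19 (SE, edgeR adjusted p = 0.277). GST-PTR1 library 2 was below 2 of the 3 GST libraries of this gene.

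The oligoadenylate synthetases make the short RNA-like messenger that activates RNase L. In this family 3 of 4 genes were called higher, and 2 of them rose at least 2-fold. OAS3, with its pair of ISRE matches, is the gene ENSG00000111331 on chromosome 12 from 113376157 to 113411054 of GRCh37 on the plus strand. Its level was 62.1, 59.4 and 78.96 CPM with GST and 198, 143 and 152 CPM with GST-PTR1, and its log2 fold change was 1.30 ± 0.15 (SE, edgeR adjusted p = 0.000143). OASL, a relative that lacks synthetase activity, is the gene ENSG00000135114 on chromosome 12 from 121458095 to 121477045 of GRCh37 on the minus strand. It stood at 30.95, 36.3 and 48.1 CPM with GST and 80.6, 88.5 and 103 CPM with GST-PTR1, and its log2 fold change was 1.23 ± 0.16 (SE, edgeR adjusted p = 0.000316). OAS2 rose by less, with a log2 fold change of 0.60 ± 0.12 (SE, edgeR adjusted p = 0.00451). OAS1, the smallest enzyme of the family, was at 81.4, 104 and 122 CPM with GST and 135, 109 and 142 CPM with GST-PTR1, and its log2 fold change was 0.33 ± 0.15 (SE, edgeR adjusted p = 0.151). The GST-PTR1 values of OAS3 and OASL lay clear of the GST values, whereas those of OAS1 overlapped them. OAS1, OAS2 and OAS3 are neighbours on chromosome 12. The log2 ratio of OAS3 to OAS1 counts, which does not depend on scaling, went from -0.61 ± 0.21 (SD, n = 3) with GST to 0.35 ± 0.23 with GST-PTR1. An exact two-sided permutation test gave p = 0.1, the smallest that 3 libraries against 3 allow, and an adjusted p of 0.212 over the 17 pairs of the 50 genes that lie within 100 kb of each other. Of these pairs, 8 had ratios that did not overlap between treatments, and 42.2% of all 33515 such pairs of tested genes did not overlap either, so that the pairs are not set apart by this.

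**Figure D2:**
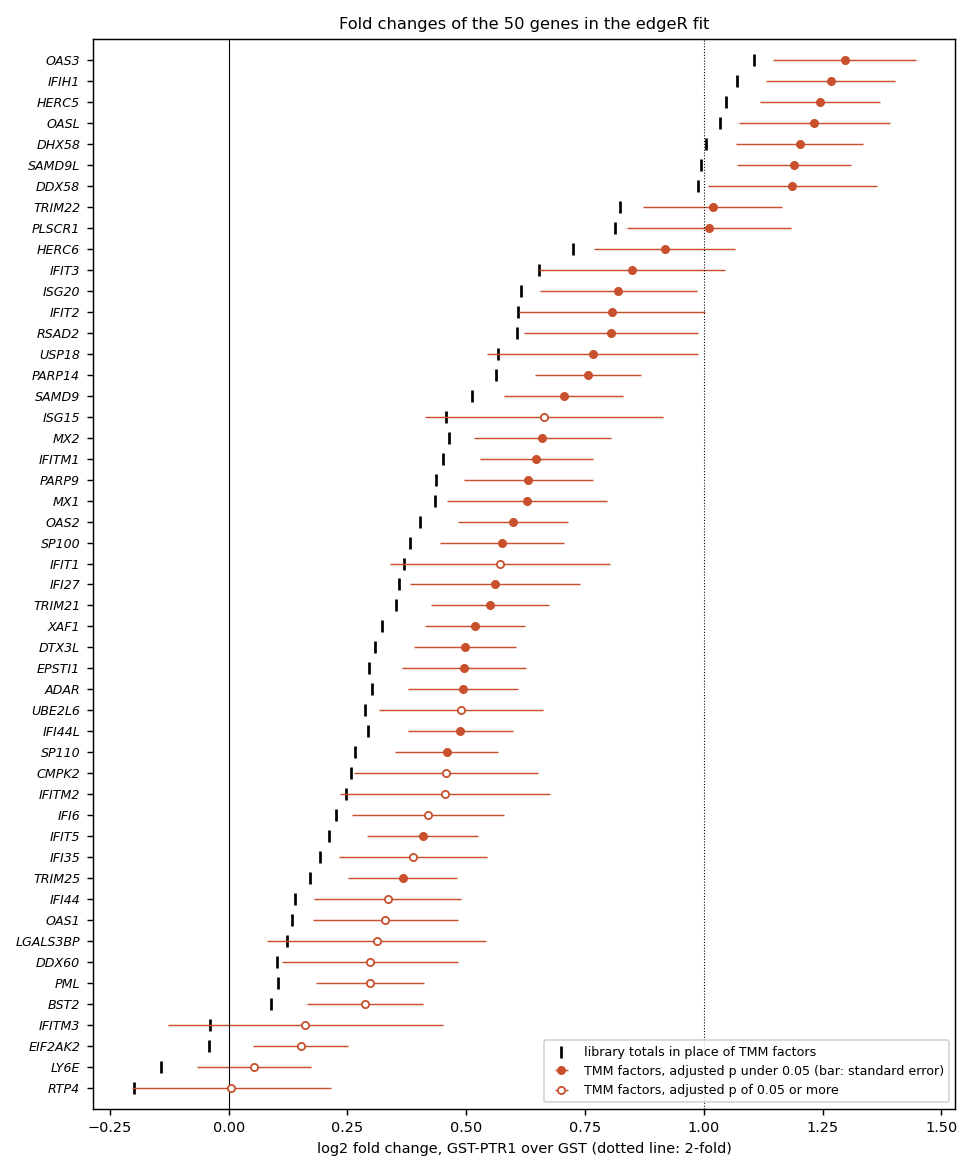
Log2 fold change of GST-PTR1 over GST for each of the 50 genes, in order of size, with bars for the SE and filled points for an adjusted p under 0.05. Black ticks give the same value with library totals; OAS3 is at the top with 1.30 and RTP4 at the bottom with 0.01.

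Of the 2 enzymes that act on double-stranded RNA, ADAR was called higher. ADAR, the adenosine deaminase that edits such RNA, was at 946, 897 and 926 CPM with GST and 1397, 1325 and 1175 CPM with GST-PTR1, and its log2 fold change was 0.49 ± 0.12 (SE, edgeR adjusted p = 0.0121). EIF2AK2 encodes PKR, the kinase that halts translation, and was at 224, 219 and 225 CPM with GST and 264, 249.6 and 229 CPM with GST-PTR1, with a log2 fold change of 0.15 ± 0.10 (SE, edgeR adjusted p = 0.302). In both genes the treatments did not overlap (19.2% of all genes tested were separate in this direction), by a margin of a few CPM for EIF2AK2. The ADAR call ended without GST library 3 (edgeR adjusted p = 0.0565) and without GST-PTR1 library 2 (edgeR adjusted p = 0.0548), and with library totals (edgeR adjusted p = 0.100).

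The 4 IFIT genes, some of whose products bind the ends of foreign RNA, sit together on chromosome 10, and 3 of the 4 were called higher. IFIT3, a partner that stabilises IFIT1, was at 104, 149 and 196 CPM with GST and 260.3, 242 and 307 CPM with GST-PTR1, and its log2 fold change was 0.85 ± 0.20 (SE, edgeR adjusted p = 0.0112). IFIT2 also rose, with a log2 fold change of 0.81 ± 0.20 (SE, edgeR adjusted p = 0.0145). IFIT5 was at 28.9, 34.9 and 36.03 CPM with GST and 43.3, 42.6 and 46.8 CPM with GST-PTR1, and its log2 fold change was 0.41 ± 0.12 (SE, edgeR adjusted p = 0.0308). IFIT1, which recognises incompletely capped RNA, overlapped between treatments and was not called, with a log2 fold change of 0.57 ± 0.23 (SE, edgeR adjusted p = 0.105). In both IFIT3 and IFIT5 the treatments were separate, with GST libraries more widely spread in IFIT3. The IFIT5 call ended without any one of 5 libraries, all but GST library 2 (edgeR adjusted p from 0.0538 to 0.0846), and with library totals (log2 fold change 0.21, edgeR adjusted p = 0.209). Leaving out GST library 3 gave IFIT1 a call (log2 fold change 0.84, edgeR adjusted p = 0.0439).

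In the ISG15 pathway 3 of 5 genes were called higher, a ligase by the most. HERC5, the main ligase that attaches ISG15 to new proteins, is the gene ENSG00000138646 on chromosome 4 from 89378268 to 89427314 of GRCh37 on the plus strand. It was at 93.7, 115 and 125 CPM with GST and 257, 245 and 288 CPM with GST-PTR1, and its log2 fold change was 1.24 ± 0.13 (SE, edgeR adjusted p = 5.07e-05). HERC6, its relative, rose with a log2 fold change of 0.92 ± 0.15 (SE, edgeR adjusted p = 0.00147). USP18, the protease that removes ISG15 and also restrains the type I receptor, rose with a log2 fold change of 0.77 ± 0.22 (SE, edgeR adjusted p = 0.0326). ISG15 itself ran from 224 to 432 CPM with GST and from 392 to 706 CPM with GST-PTR1, so that the treatments overlapped, and was not called, with a log2 fold change of 0.66 ± 0.25 (SE, edgeR adjusted p = 0.0846). UBE2L6, the conjugating enzyme, was at 192, 253 and 296 CPM with GST and 310.5, 308 and 423 CPM with GST-PTR1, and its log2 fold change was 0.49 ± 0.17 (SE, edgeR adjusted p = 0.0685). HERC5 values formed 2 tight clusters by treatment, while the lowest GST-PTR1 library of UBE2L6 was only just above the highest GST library. The USP18 call ended without GST library 1 (edgeR adjusted p = 0.0642), GST library 2 (edgeR adjusted p = 0.106) or GST-PTR1 library 3 (edgeR adjusted p = 0.0851), and with library totals (edgeR adjusted p = 0.0619). ISG15 was called without GST library 3 (log2 fold change 0.93, edgeR adjusted p = 0.0478), and UBE2L6 was called by DESeq2 (adjusted p = 0.0334).

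Of the 5 effectors that block viral copying, 4 were called higher. ISG20, an exonuclease, was at 69.3, 64.97 and 87.1 CPM with GST and 118, 109 and 164 CPM with GST-PTR1, and its log2 fold change was 0.82 ± 0.16 (SE, edgeR adjusted p = 0.0055). RSAD2 encodes viperin, which makes a chain-terminating nucleotide, and rose, with a log2 fold change of 0.80 ± 0.18 (SE, edgeR adjusted p = 0.0109). The dynamin-like GTPases MX2 and MX1 rose by log2 fold changes of 0.66 and 0.63, with edgeR adjusted p-values of 0.00844 and 0.0238. CMPK2, a mitochondrial nucleotide kinase that lies beside RSAD2, was at 2.16, 2.51 and 2.85 CPM with GST and 3.50, 3.08 and 3.81 CPM with GST-PTR1, and its log2 fold change was 0.46 ± 0.19 (SE, edgeR adjusted p = 0.118). All 5 genes had every GST-PTR1 library above every GST library (19.2% of all genes tested did), the gap being narrow for CMPK2. The MX1 call ended without GST library 2 (edgeR adjusted p = 0.0682) and without GST-PTR1 library 1 (edgeR adjusted p = 0.0522), and with library totals (edgeR adjusted p = 0.0592).

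The membrane proteins that restrict viral entry and release had the lowest median log2 fold change of the 13 subgroups, at 0.29, and 1 of the 5 was called. IFITM1, which blocks membrane fusion at the cell surface, was at 39.1, 44.97 and 47.99 CPM with GST and 69.5, 61.6 and 76.01 CPM with GST-PTR1, and its log2 fold change was 0.65 ± 0.12 (SE, edgeR adjusted p = 0.00322). IFITM2 and IFITM3, which act in endosomes, had low counts, and neither was called. IFITM3 had between 10 and 36 counts a library, and it had a log2 fold change of 0.16 ± 0.29 (SE, edgeR adjusted p = 0.722). BST2, also called tetherin, holds budding virus at the surface and had a log2 fold change of 0.29 ± 0.12 (SE, edgeR adjusted p = 0.119). LY6E, a lipid-anchored surface protein, was at 404, 356 and 435 CPM with GST and 455, 375 and 411 CPM with GST-PTR1, and its log2 fold change was 0.05 ± 0.12 (SE, edgeR adjusted p = 0.783). IFITM1 was clear of its GST values and LY6E overlapped them. Exons of IFITM1 shared 32.5% of their bases with IFITM2 on the same strand in the annotation used, and reads falling on both genes or mapping to several places were left out, so the IFITM counts are incomplete.

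Of the 3 genes of nuclear bodies 2 were called higher, and all 3 ubiquitin ligases of the TRIM family were. SP100, a nuclear body scaffold, was at 44.3, 58.1 and 63.9 CPM with GST and 84.9, 79.3 and 84.01 CPM with GST-PTR1, and its log2 fold change was 0.58 ± 0.13 (SE, edgeR adjusted p = 0.0109). The related gene SP110 rose by 0.46 on the log2 scale (edgeR adjusted p = 0.0125). PML, the organiser of the bodies, was at 160.5, 142 and 165 CPM with GST and 213, 189.7 and 172 CPM with GST-PTR1, and its log2 fold change was 0.30 ± 0.11 (SE, edgeR adjusted p = 0.0886). PML was separate by a few CPM and was called without GST-PTR1 library 3 (log2 fold change 0.38, edgeR adjusted p = 0.0441). TRIM22, the gene ENSG00000132274 on chromosome 11 from 5710919 to 5758319 of GRCh37 on the plus strand, was the strongest of the TRIM genes. It was at 51.2, 64.4 and 75.4 CPM with GST and 134, 113 and 140.3 CPM with GST-PTR1, and its log2 fold change was 1.02 ± 0.15 (SE, edgeR adjusted p = 0.000645). TRIM21, a cytosolic antibody receptor, rose by 0.55 on the log2 scale (edgeR adjusted p = 0.0105). TRIM25, which activates RIG-I, was at 219, 176 and 194 CPM with GST and 272, 252 and 234 CPM with GST-PTR1, and its log2 fold change was 0.37 ± 0.11 (SE, edgeR adjusted p = 0.0445). All 3 TRIM genes separated the treatments, and 19.2% of all genes tested did so in this direction. The TRIM25 call ended without any one of 4 libraries, GST libraries 2 and 3 and GST-PTR1 libraries 1 and 2 (edgeR adjusted p from 0.115 to 0.129), and with thinning to the smallest total (edgeR adjusted p = 0.059). With library totals the calls of SP110, TRIM21 and TRIM25 ended (edgeR adjusted p of 0.132, 0.0567 and 0.359).

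The PARP9, DTX3L and PARP14 genes, which encode an ADP-ribosylation complex and its neighbour on chromosome 3, were all called higher. PARP14 was at 251, 293 and 309 CPM with GST and 481, 494 and 463 CPM with GST-PTR1, and its log2 fold change was 0.76 ± 0.11 (SE, edgeR adjusted p = 0.000818). PARP9 rose by 0.63 on the log2 scale (edgeR adjusted p = 0.008). DTX3L, the ubiquitin ligase bound to PARP9, was at 91.8, 101 and 109 CPM with GST and 149.8, 147 and 129 CPM with GST-PTR1, and its log2 fold change was 0.50 ± 0.11 (SE, edgeR adjusted p = 0.00802). All 3 separated the treatments, against 19.2% of all genes tested in this direction. The DTX3L call ended with library totals (log2 fold change 0.31, edgeR adjusted p = 0.0788). SAMD9L and SAMD9 are paralogues on chromosome 7 that restrain translation. SAMD9L is the gene ENSG00000177409 on chromosome 7 from 92759368 to 92777682 of GRCh37 on the minus strand. It was at 240.1, 299.6 and 299 CPM with GST and 624, 624 and 664 CPM with GST-PTR1, and its log2 fold change was 1.19 ± 0.12 (SE, edgeR adjusted p = 4.62e-05), the smallest adjusted p among the 50. SAMD9 was at 115, 159.7 and 136 CPM with GST and 223, 219 and 228 CPM with GST-PTR1, and its log2 fold change was 0.70 ± 0.12 (SE, edgeR adjusted p = 0.00252). The GST-PTR1 libraries were within a narrow band in both paralogues.

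Of the 5 IFI genes, which are named for their induction by interferon and are mostly of less certain function, 2 were called higher. IFI27, a mitochondrial protein, was at 294, 392 and 429.5 CPM with GST and 491, 463 and 693 CPM with GST-PTR1, and its log2 fold change was 0.56 ± 0.18 (SE, edgeR adjusted p = 0.0474). IFI44L rose by 0.49 on the log2 scale (edgeR adjusted p = 0.0104), while IFI44 beside it was at 94.01, 135 and 141 CPM with GST and 158, 136 and 173 CPM with GST-PTR1, and its log2 fold change was 0.33 ± 0.15 (SE, edgeR adjusted p = 0.148). IFI6 and IFI35 overlapped between treatments and had log2 fold changes of 0.42 and 0.39, with edgeR adjusted p-values of 0.0888 and 0.101. The IFI27 call ended without any one of 4 libraries, namely each GST library and GST-PTR1 library 3 (edgeR adjusted p from 0.0633 to 0.134). It also ended with library totals (edgeR adjusted p = 0.107), with a minimum of 10 counts in every library (edgeR adjusted p = 0.0523) and with thinning to the smallest total (edgeR adjusted p = 0.0509). The IFI44L call ended with library totals (log2 fold change 0.29, edgeR adjusted p = 0.0789). IFI35 was called without GST library 3 (log2 fold change 0.58, edgeR adjusted p = 0.0316).

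Of the remaining 5 genes, 3 were called higher. PLSCR1, a phospholipid scramblase of the plasma membrane, is the gene ENSG00000188313 on chromosome 3 from 146232967 to 146262651 of GRCh37 on the minus strand. It was at 40.03, 59.04 and 66.9 CPM with GST and 102, 105 and 128 CPM with GST-PTR1, and its log2 fold change was 1.01 ± 0.17 (SE, edgeR adjusted p = 0.002). XAF1, which promotes cell death, and EPSTI1 rose by 0.52 and 0.49 on the log2 scale, with edgeR adjusted p-values of 0.00596 and 0.0221. RTP4, a receptor chaperone, was at 7.21, 10.1 and 11.5 CPM with GST and 8.22, 8.32 and 12.4 CPM with GST-PTR1, and its log2 fold change was 0.01 ± 0.21 (SE, edgeR adjusted p = 0.988). Its GST values lay within the GST-PTR1 range save for the lowest one. LGALS3BP, a secreted glycoprotein, overlapped too, with a log2 fold change of 0.31 ± 0.23 (SE, edgeR adjusted p = 0.357). The EPSTI1 call ended without GST library 1 (edgeR adjusted p = 0.0505) or 2 (edgeR adjusted p = 0.0689), and without GST-PTR1 library 3 (edgeR adjusted p = 0.0597), and with library totals (edgeR adjusted p = 0.0992).

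Levels of different genes were compared per length, as RPKM, which is CPM divided by the exon length in kilobases. That length takes in all annotated exons of a gene, whether used in these cells or not, so the order depends on the annotation. By CPM alone MX1 was the highest with GST, at 1327 CPM over 8611 exon bases, against 445 CPM over 865 for IFI6. With GST the order was led by IFI6 at 515 ± 92.8 RPKM (SD, n = 3), BST2 at 498 ± 52.2 and ISG15 at 456 ± 146, which did not differ beyond their spread. MX1 at 154 ± 33.6 and LY6E at 151 ± 15.2 came next and did not differ from each other beyond it. The lowest were IFITM3 at 0.575 ± 0.174 and CMPK2 at 0.585 ± 0.0799 RPKM, again within each other's spread. Because the IFITM counts are incomplete, the place of IFITM3 is not a measure of how little it was expressed. With GST-PTR1 the ISG15 level was first, at 723 ± 237 RPKM, ahead of IFI6 at 688 ± 118 by less than the spread. The 9 genes that rose at least 2-fold held ranks between 15 and 46 with GST, from SAMD9L at 39.2 ± 4.78 RPKM down to DHX58 at 1.99 ± 0.246. Across all 50 genes the log2 level with GST and the log2 fold change had a Pearson's r of -0.09 and a Spearman's rho of -0.07. This is a description over genes, which share the same 6 libraries and are not independent replicates.

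The 50 genes shifted as a body from library to library within a treatment. Their summed level was 7768, 8868 and 10133 CPM with GST and 13785, 12297 and 14288 CPM with GST-PTR1, so that the treatments did not overlap. Among the GST libraries, number 3 was the highest for 44 of the 50 genes, while it was the highest for 25.7% of all genes tested. Number 1 was the lowest for 39, against 37.4% of all genes tested. Among the GST-PTR1 libraries, number 2 was the lowest for 36, against 25.8%, and number 3 was the highest for 30, against 38.5%. The median distance of the 50 genes from the mean of their treatment was -0.21, 0.02 and 0.21 on the log2 scale with GST and 0.01, -0.13 and 0.11 with GST-PTR1. With GST these medians followed the library totals, and whether the order follows depth was not tested. With all libraries thinned to the smallest total, 31 genes were called higher and the median log2 fold change was 0.56. Without GST library 3 the median log2 fold change of the 50 genes was 0.67, and without GST library 1 it was 0.47.

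**Figure D3:**
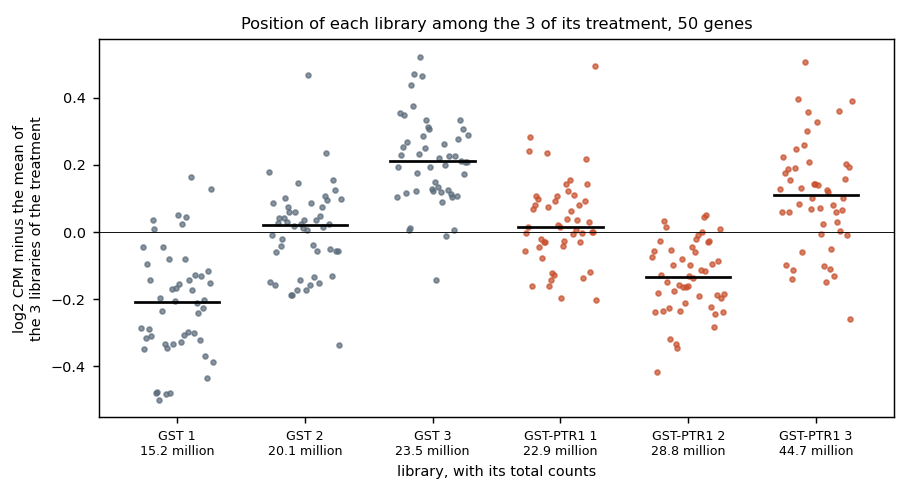
Distance of each of the 50 genes from the mean of the 3 libraries of its treatment, in log2 CPM, for each library, with a line at the median. The points of GST library 3 lie mostly above 0 and those of GST library 1 mostly below it, with medians of 0.21 and -0.21.

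Around these 50 genes, the rest of the interferon pathway was followed through 69 genes in lists by role, 49 of which passed the expression filter. Of the 49, 34 (69.4%) were called higher, against 9.15% of all genes tested, and 1 was called lower, against 11.4%. Of the 34, 22 rose at least 2-fold (44.9% of the 49, against 3.68% of all genes tested). With library totals 29 were called higher and 3 lower, and no share of all genes was computed for that setting. Of 21 interferon genes, IFNB1 and IFNL1 alone were expressed enough to be tested. IFNB1, the type I interferon most cells can make, had 13, 34 and 36 counts with GST and 61, 85 and 188 with GST-PTR1, and its log2 fold change was 1.46 ± 0.30 (SE, edgeR adjusted p = 0.00615). IFNL1, a type III interferon, had 8, 7 and 14 counts with GST and 37, 22 and 72 with GST-PTR1, and its log2 fold change was 1.64 ± 0.38 (SE, edgeR adjusted p = 0.0121). Both were separate between treatments at a low level, and the IFNL1 call ended without GST library 2 (log2 fold change 1.45, edgeR adjusted p = 0.0526). The other 19 had at most 30 counts in any library, and IFNG had 0 in all 6, which allows up to 3 counts a library, for counting error only.

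The receptor and signalling genes did not move as a block. Of 6 receptor genes, 2 were called higher (33.3%, against 9.15% of all genes tested) and 4 were not called. These 2 were IFNGR2 and IFNLR1, with log2 fold changes of 1.17 and 1.05 (edgeR adjusted p of 3.14e-05 and 0.00144). Among the kinase genes JAK2 and TYK2 were called higher, with 0.71 and 0.49 (edgeR adjusted p of 0.0133 and 0.0197). JAK1 was not called (0.08, edgeR adjusted p = 0.594). IFNAR1, a chain of the type I receptor, was at 67.1, 73.1 and 61.5 CPM with GST and 65.8, 73.9 and 67.97 CPM with GST-PTR1, and its log2 fold change was 0.04 ± 0.10 (SE, edgeR adjusted p = 0.803). STAT2 and IRF9, which are parts of ISGF3, were not called, as STAT2 had a log2 fold change of -0.04 ± 0.14 (SE, edgeR adjusted p = 0.869) and IRF9 had a log2 fold change of 0.10 ± 0.16 (SE, edgeR adjusted p = 0.699). A stretch holding 48.4% of the exon bases of IRF9 is shared with another gene of that strand, so its counts are incomplete. IRF1, a factor shared with NF-κB and gamma-interferon signalling, was at 74.95, 73.5 and 83.6 CPM with GST and 247, 261 and 264 CPM with GST-PTR1, and its log2 fold change was 1.73 ± 0.10 (SE, edgeR adjusted p = 6.97e-07). IRF7, which drives interferon genes after infection, rose with a log2 fold change of 0.74 ± 0.12 (SE, edgeR adjusted p = 0.00161). TLR3, the endosomal sensor of double-stranded RNA, was the only one of the 49 that was called lower. It was at 0.781, 1.33 and 0.963 CPM with GST and 0.269, 0.366 and 0.406 CPM with GST-PTR1, with a log2 fold change of -1.52 ± 0.33 (SE, edgeR adjusted p = 0.00783). These are low levels, from 13, 28 and 24 counts with GST and 6, 10 and 16 with GST-PTR1. With a minimum of 10 counts in every library TLR3 was not tested, and 0 of the pathway genes were called lower.

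Targets usually assigned to gamma-interferon had a larger median change than the classical genes. Of 16 tested, 14 were called higher (87.5%, against 9.15% of all genes tested) and 12 rose at least 2-fold (75%, against 3.68%). The median log2 fold change was 2.70 beside 0.57 for the 50 classical genes, and the difference between the lists was not tested. The list is named by usual assignment and is not specific to gamma-interferon, and the signal behind its changes was not tested either. GBP1, a guanylate-binding GTPase, was at 6.73, 7.63 and 8.23 CPM with GST and 98.6, 96.6 and 122 CPM with GST-PTR1, and its log2 fold change was 3.81 ± 0.14 (SE, edgeR adjusted p = 2.29e-08). The chemokine gene CXCL10 was at 161, 325 and 360.1 CPM with GST and 6268, 8384 and 11252 CPM with GST-PTR1, and its log2 fold change was 4.93 ± 0.33 (SE, edgeR adjusted p = 1.99e-06). No GST-PTR1 library of either gene came near the GST range. Not all targets on the list rose as far. WARS1 and SECTM1 were not called, with log2 fold changes of 0.28 and 0.47 (edgeR adjusted p of 0.0759 and 0.239). PSMB8 and PSMB9 were called with 0.52 and 0.63 (edgeR adjusted p of 0.0325 and 0.0302). The largest change in any of these lists was that of SOCS3, a feedback inhibitor of JAK kinases, at 1.26, 1.09 and 1.28 CPM with GST and 249, 196 and 189 CPM with GST-PTR1, with a log2 fold change of 7.44 ± 0.18 (SE, edgeR adjusted p = 1.09e-09).

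**Figure D4:**
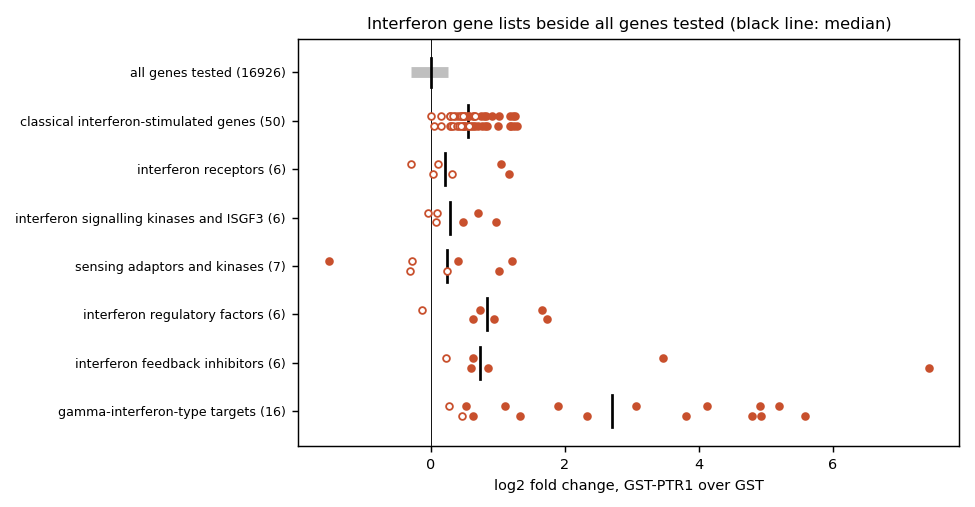
Log2 fold changes of the 50 classical interferon-stimulated genes and of 6 lists of other interferon pathway genes, each point a gene, filled where the adjusted p was under 0.05, with a black line at the median of each list. The grey bar spans the quartiles of all 16926 genes tested, whose median is 0.01, and the classical genes lie between 0.01 and 1.30.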

How the data were processed

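RNA-Seq of RPMI8226 cells was analysed from 1 table in which the authors deposited raw read counts per gene for 6 libraries. They used featureCounts 1.5.0-p1 with genes of Ensembl release 75 on GRCh37. Reads were counted by strand, and reads on several genes or with several mapping places were left out. The aligner is not given in the table header. The table also gives exon lengths, from which RPKM was computed here. Columns were assigned to a treatment by name, but their numbers differ from those of the samples, and treatments were compared unpaired. No libraries of a treatment were alike within sampling noise.

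The test was that of edgeR 4.0.16 on the counts, under R 4.3.3 (TMM factors, filterByExpr, glmQLFit and glmQLFTest), with Benjamini-Hochberg adjustment over the 16926 genes tested. The script was first tested on simulated data. An adjusted p under 0.05 was the threshold, and at least 2-fold where stated. The alternatives were DESeq2 size factors or library totals, DESeq2 1.42.0, voom in limma 3.58.1, 2 other filters on low counts, thinning, and leaving out each library, 13 in all. Neighbouring genes were compared by an exact permutation test with SciPy 1.17.1. CPM and RPKM are on TMM-scaled totals.

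The 50 genes, their subgroups, the other lists and the tests were chosen with earlier results of these data known, so the lists are not independent evidence. Values in every library are given for the genes of largest and smallest change in each subgroup, for those at least 2-fold higher or called lower, and for some other pathway genes set by name. Promoter windows were those of the largest changes with and without an ISRE match. Gene coordinates are those of the table, on GRCh37, and promoter windows are on GRCh38.p14. DDX58 was matched under its current symbol RIGI, and 2 other listed symbols had no match on primary chromosomes. The values of 1 listed gene are not reported here.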

Additional observations from a re-analysis of the deposited data

How the results depend on the processing

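The number of classical interferon-stimulated genes called higher was 33 and ranged from 31 to 34 with DESeq2 size factors, DESeq2's test, voom, a minimum of 10 counts in every library, or thinning. It was 22 with library totals and 40 with a minimum of 1 count in any library. Without each library in turn it was between 28 and 32, the number at least 2-fold higher was between 7 and 13, the number lower was 0 throughout, and the median log2 fold change was between 0.47 and 0.67. With library totals 5 genes rose at least 2-fold and the median was 0.36, while the median of all genes tested was -0.19. Under the 13 alternatives, 9 values of the 50 genes changed sign. EIF2AK2 (-0.041), IFITM3 (-0.039), LY6E (-0.14) and RTP4 (-0.20) did so with library totals. RTP4 also did with thinning (-0.059), without GST library 1 (-0.16) and without GST-PTR1 library 3 (-0.21), and LY6E without GST library 2 (-0.020) and without GST-PTR1 library 1 (-0.019). Without 1 library, RTP4 reached 0.16 and LY6E 0.12 at most. None of these 4 genes was called. A further 37 values lost the call and 12 gained it, and 22 of the 33 genes were called under every alternative. The cause was not tested. IFNAR1, IRF9 and STAT2, which were not called either, changed sign too. IFNAR1 was at -0.15 and IRF9 at -0.10 with library totals, and IRF9 was at -0.016 with thinning. Without 1 library, IFNAR1 lay between -0.017 and 0.11, IRF9 between -0.053 and 0.23, and STAT2 between -0.14 and 0.10. The other pathway genes called higher numbered 29 to 36 across the alternatives. Shares of all genes called were computed only for the edgeR fit with TMM factors on all 6 libraries. Counts under the alternatives therefore stand without a background share. Among the 50 genes, the SE was largest for IFITM3 (0.29). No paired analysis was possible because the columns cannot be matched to the replicate numbers of the samples.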
